A study of Mus musculus with 4 samples.

Results

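The genes described here encode the SETD1 and KMT2A/B histone methyltransferase complexes, the members of the COMPASS family that do not contain PA1. They are 9 of the 18193 genes that the arrays name, read by 19 of the 45037 probe sets that were not controls, and were taken as every probe set whose platform symbol is one of the 9. The enzymes are Kmt2a, Kmt2b, Setd1a and Setd1b. Men1 and Psip1 encode partners of the KMT2A and KMT2B enzymes, Cxxc1 and Wdr82 encode subunits of the SETD1 complexes, and the product of Hcfc1 joins both kinds of complex.

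The series consists of 4 Affymetrix arrays of mouse embryonic fibroblasts (MEFs) that had been immortalised. All cells came from PA1 loxP/loxP MEFs, in which the PA1 gene is flanked by loxP sites. Retrovirus expressing Cre recombinase, the enzyme that removes DNA between loxP sites, gave the PA1 -/- cells (2 arrays), and retrovirus with vector alone gave the PA1 +/+ cells (2 arrays). Both were selected with puromycin at 2 µg/ml for 3 days, and the selection was done once more. PA1 +/+ cells had no Cre, so exposure to Cre and loss of PA1 cannot be told apart. The study asked which genes PA1 regulates. The labels number the arrays of each genotype 1 and 2 without saying what a number stands for, nor how many MEF lines were used, so the spread that p-values rest on is that between these arrays, whatever a number stands for. Hoxc8 and Hoxc6, given below, stood far apart by number in both genotypes.

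Methylation of lysine 4 of histone H3 (H3K4) marks active promoters and enhancers. SETD1A and SETD1B lay down most of the trimethyl mark at promoters, where CXXC1 brings them to unmethylated CG-rich DNA and WDR82 ties them to initiating RNA polymerase II. KMT2A and KMT2B, which are held on chromatin with menin (Men1) and LEDGF (Psip1), act at a narrower set of promoters, the Hox genes among them. PA1 works elsewhere, with PTIP in the KMT2C and KMT2D complexes, which act mainly at enhancers. All of these enzymes share the core subunits WDR5, RBBP5, ASH2L and DPY30.

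Array medians lay between 63.2 and 66.4 signal units. The small number of arrays sets the precision of every value below. Log2 signals correlated at 0.971 and 0.977 between the genotypes of the same number, against 0.918 and 0.920 between arrays that share a genotype. The targeted gene, Pagr1a, checked the labels: its brightest probe set read 1340.3 and 1389 on the PA1 +/+ arrays and 108 and 113 on the PA1 -/- arrays, without overlap, and a log2 difference of -3.51 (SE 0.249). Of 10 fibroblast markers, 9 were bright enough to be tested. Their summed signal was 81098 to 102493 in PA1 +/+ and 71059 to 85657 in PA1 -/- cells, while Lum was dim in all, at 31.1 or less. All 9 differences, PA1 -/- minus PA1 +/+, were below 0, as were 5004 of the 10714 genes tested. Lum, left out of the test, went the other way (0.41). The largest of the 9 were those of Pdgfra (1515 and 357 against 134 and 210.3, a log2 difference of -2.07), Dcn (-1.38) and Pdgfrb (-0.77). The sums are carried by Vim, Col1a2, Fn1, Col1a1 and S100a4, which differed by -0.51 to -0.09. Summed signals of the epithelial, endothelial, blood, adipocyte and muscle marker lists lay between 80.6 and 657 per array. The brightest readings were those of Fabp4 (up to 462), Krt18, Cd68 (up to 224), Epcam (up to 190.4), Cdh1 (159.6 on the PA1 +/+ array numbered 1, at most 24.5 on the others), Des (up to 88.5) and Kdr (up to 82.5), while Pecam1 read at most 10.2 and Ptprc at most 16.8. The epithelial keratin gene Krt18 stood apart by number, with 298 and 266 on the arrays numbered 1 and 11.4 and 27.6 on those numbered 2. The part of these markers in the values below was not tested.

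The genes of the SETD1 and KMT2A/B complexes showed small differences between PA1 -/- and PA1 +/+ cells. None of the 9 passed limma at an adjusted p under 0.05, nor did any of the 10714 genes tested (0% called, with 440 of 22519 probe sets at an unadjusted p under 0.05, none of them from the 9 genes). Differences of the brightest probe sets on the log2(signal + 9.96) scale ran from -0.03 for Kmt2b to 0.31 for Kmt2a, with a median of 0.05, beside a median of 0.02 over all genes tested. The median size of the difference, without its sign, was 0.05 for the 9 genes and 0.19 for all genes. Within a number, where opposite signs do not cancel, it was 0.15 and 0.10 for the 9 genes and 0.25 and 0.21 for all genes at numbers 1 and 2. No member differed by at least 1.5-fold, in the mean or within either number, where 8.55% of all genes did so in the mean, 14.7% within number 1 and 11.6% within number 2. The brightest probe sets of the 9 genes lay at the 80.9 to 92.3 percentile of mean log2 signal over all probe sets. All genes tested include dimmer ones, and comparisons of size or spread with them were not matched for signal. The 95% intervals of the 9 differences were wide, the lowest bound being 0.553-fold and the highest 2.05-fold. An absence of calls is no sign of equal levels, since Pagr1a itself did not pass this test (limma adjusted p = 0.876), in which the difference between the numbers counts as spread. In a fit that set the number difference apart as a block, Pagr1a passed (limma adjusted p = 1.9e-05) and none of the 9 genes did.

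**Figure D1:**
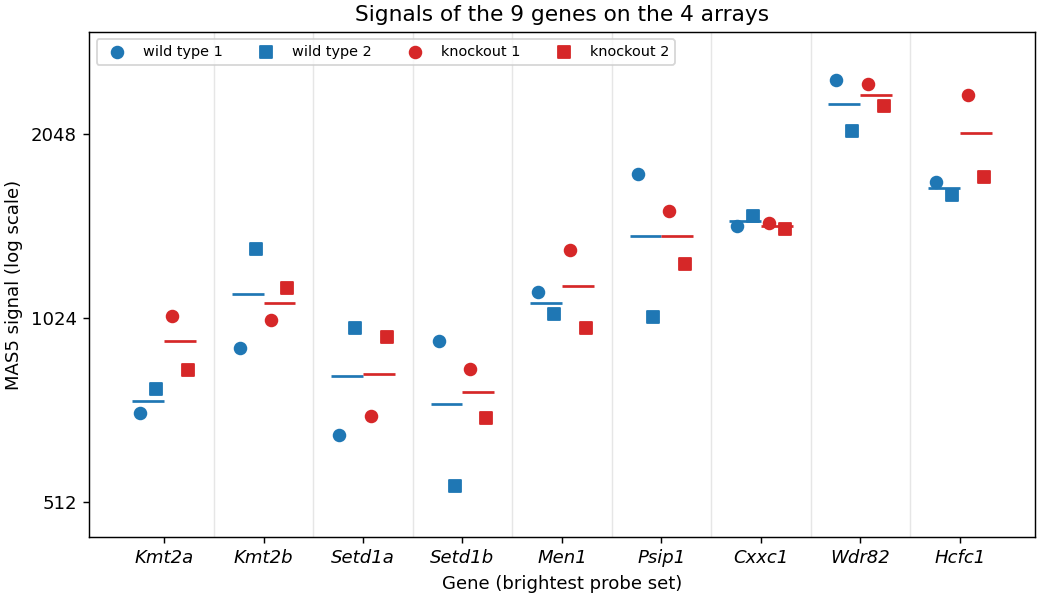
Signals of the brightest probe set of each gene (log axis) on the 4 arrays, with circles for number 1, squares for number 2, blue for PA1 +/+, red for PA1 -/-, and a bar at the mean of each genotype. Kmt2a and Hcfc1 are the genes with both red points above both blue points. The number, not the genotype, separates Setd1a and Kmt2b (number 2 above) and Setd1b, Men1, Psip1 and Wdr82 (number 2 below).

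Among the enzymes, Kmt2a showed the largest genotype difference. Its brightest probe set read 717 and 785 on the PA1 +/+ arrays numbered 1 and 2 and 1033 and 844 on the PA1 -/- arrays. Both PA1 -/- values were the higher ones, and the array numbered 1 was the highest. The means were 751 ± 47.6 and 939 ± 134 (SD, n = 2 each), a log2 difference of 0.31 (SE 0.253, 95% interval -0.35 to 0.97) that did not pass (limma adjusted p = 0.9998). The other probe set of Kmt2a, the MLL1 enzyme gene that is rearranged in leukaemia, read 727 and 685 against 779.5 and 669. There the groups overlapped and the difference was 0.03, so the probe sets of this gene did not show the same size.

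Kmt2b, whose enzyme is the closest relative of KMT2A, is read by 1 probe set. It gave 914 and 1327 in PA1 +/+ and 1017 and 1147 in PA1 -/- cells. Both arrays numbered 2 were the higher ones, whichever the genotype, and the genotypes overlapped. The difference was 0.15 within number 1 and -0.21 within number 2, which leaves a mean of -0.03 (SE 0.288).

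Setd1a read 659 and 987 in PA1 +/+ and 708 and 955 in PA1 -/- cells. The genotype difference was 0.10 and -0.05 within numbers 1 and 2, a mean of 0.03 (SE 0.328, 95% interval -0.83 to 0.88). The arrays numbered 2 were 1.41-fold above those numbered 1, in both genotypes. A dim probe set of the gene, left out of the test by the filter on low signals, showed the same order, with 22.7 and 62.8 in PA1 +/+ against 23.1 and 57.1 in PA1 -/- cells.

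Setd1b, the paralog of Setd1a, had 2 probe sets that disagreed. The brighter read 939.9 and 544 in PA1 +/+ and 846 and 704 in PA1 -/- cells, a difference of -0.15 within number 1 and 0.36 within number 2. The dimmer read 353 and 463 against 474 and 343, which is 0.41 within number 1 and -0.42 within number 2. Within both numbers the probe sets thus had opposite signs, and the mean differences were 0.11 (SE 0.354) and -0.0025. Here the probe sets disagreed by more than the genotypes did.

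**Figure D2:**
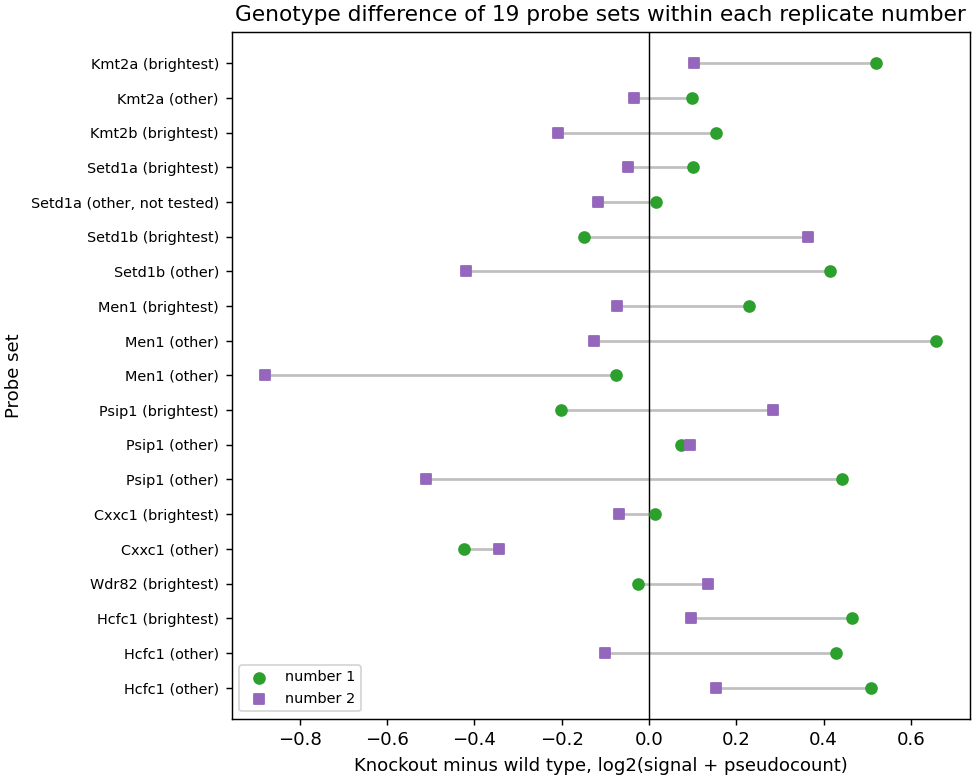
Knockout minus wild type on the log2(signal + 9.96) scale for all 19 probe sets of the 9 genes, with a circle for number 1, a square for number 2 and a line joining them. The line crosses 0 for 13 of the 19 probe sets, and the 2 probe sets of Setd1b run opposite ways.

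The partners of KMT2A and KMT2B gave no shared direction. Men1, the menin gene, read 1128 and 1039 in PA1 +/+ and 1323 and 987 in PA1 -/- cells by its brightest probe set (difference 0.08, SE 0.264). The highest and the lowest array were both PA1 -/-. A second Men1 probe set read 336 and 436 against 536 and 398, a difference of 0.27. The dimmest read 122 and 131 against 115 and 66.6, where both PA1 -/- values were the lower ones (difference -0.48, SE 0.369). That last value rests on the PA1 -/- array numbered 2: it was -0.08 within number 1 and -0.88 within number 2.

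Psip1, which encodes the chromatin reader LEDGF, showed larger mean differences between the numbers than between the genotypes. Its brightest probe set read 1763 and 1029 in PA1 +/+ and 1531 and 1255 in PA1 -/- cells, its second 1558 and 919.9 against 1639 and 983, and its dimmest 387 and 267 against 530.1 and 185. On every one of these probe sets, both arrays numbered 1 stood above both numbered 2, by 1.44-fold, 1.67-fold and 2.00-fold. The genotype differences were 0.04 (SE 0.343, 95% interval -0.85 to 0.94), 0.08 and -0.03. On the brightest and the dimmest probe set, opposite signs cancelled in these means. They were -0.20 and 0.28 within numbers 1 and 2 on the brightest, and 0.44 and -0.51 on the dimmest. The difference between the numbers was not tested.

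Of the subunits of the SETD1 complexes, Cxxc1 was the steadiest of the 9 genes over the 4 arrays when brightest probe sets were compared. Its brightest probe set read 1446 and 1504 in PA1 +/+ and 1461 and 1434 in PA1 -/- cells, a difference of -0.03 (SE 0.215, 95% interval -0.59 to 0.54). The SD of its 4 log2 values, 0.0298, lay at the 0.233 percentile of all genes tested, whose median SD was 0.293. The second, dimmer probe set of Cxxc1 was less steady, with an SD of 0.397, and read 243 and 355 against 179 and 278. It was lower in PA1 -/- cells within both numbers, by -0.42 and -0.34, although the genotypes overlapped. Its mean difference of -0.38 (SE 0.366) did not pass (limma adjusted p = 0.9998).

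Wdr82, which encodes the other SETD1 subunit, read 2510.1 and 2068 in PA1 +/+ and 2465 and 2273 in PA1 -/- cells. Both PA1 -/- values lay between the PA1 +/+ values. The difference was 0.05 (SE 0.219, 95% interval -0.52 to 0.63).

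Hcfc1 encodes HCF-1, a chromatin cofactor that binds OGT and joins KMT2A and SETD1 enzymes to transcription factors. It was the only gene of the 9 with several probe sets that all lay above 0 by over 0.1. The brightest read 1711 and 1626 in PA1 +/+ and 2367 and 1739.6 in PA1 -/- cells (means 1668 ± 60.1 and 2053 ± 444, SD, n = 2 each), without overlap. Its difference was 0.28 (SE 0.252, 95% interval -0.38 to 0.94; limma adjusted p = 0.9998), made up of 0.47 within number 1 and 0.10 within number 2. The other probe sets read 331 and 397 against 448 and 369.6 (difference 0.16) and 246 and 332 against 354 and 370.3 (0.33). The difference was larger within number 1 on each of the probe sets.

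Compared within each replicate number, 7 of the 9 genes had opposite signs at the 2 numbers, where 36.8% of all genes tested did. None was lower in PA1 -/- cells at both numbers (29.3% of all genes), other than Cxxc1 after quantile or cyclic loess scaling, and Kmt2a and Hcfc1 were higher at both (33.9% of all genes), joined by Wdr82 after median scaling. The same 2 genes had both PA1 -/- arrays above both PA1 +/+ arrays, as did 15% of all genes, and none of the 9 had both below (11.3% of all genes). The smallest p that an exact permutation test can reach with 2 arrays a genotype is 0.333. The signs of the mean differences of Setd1a, Kmt2b, Cxxc1 and Psip1, all within 0.05 of 0, turned under at least 1 other scaling of the arrays. Kmt2a, Hcfc1, Setd1b, Men1 and Wdr82 kept theirs under quantile, median and cyclic loess scaling.

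Read through their brightest probe sets, 6 of the 9 genes moved more with the replicate number than with the genotype, as did 67.5% of all genes tested. Setd1b, Men1, Psip1 and Wdr82 had both arrays numbered 2 below both numbered 1 (31% of all genes). Setd1a and Kmt2b had both above (29.8% of all genes). The median size of the number difference was 0.27 for the 9 genes and 0.34 for all genes. Number 2 minus number 1 was 0.50 for Setd1a and -0.52 for Setd1b, whose enzymes take the same subunits, -0.20 for Wdr82 and 0.01 for Cxxc1. It was 0.35 for Kmt2b, -0.27 for Men1, -0.53 for Psip1 and -0.26 for Hcfc1. For Kmt2a it was -0.08, where opposite signs cancelled (0.13 in PA1 +/+ and -0.29 in PA1 -/- cells).

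**Figure D3:**
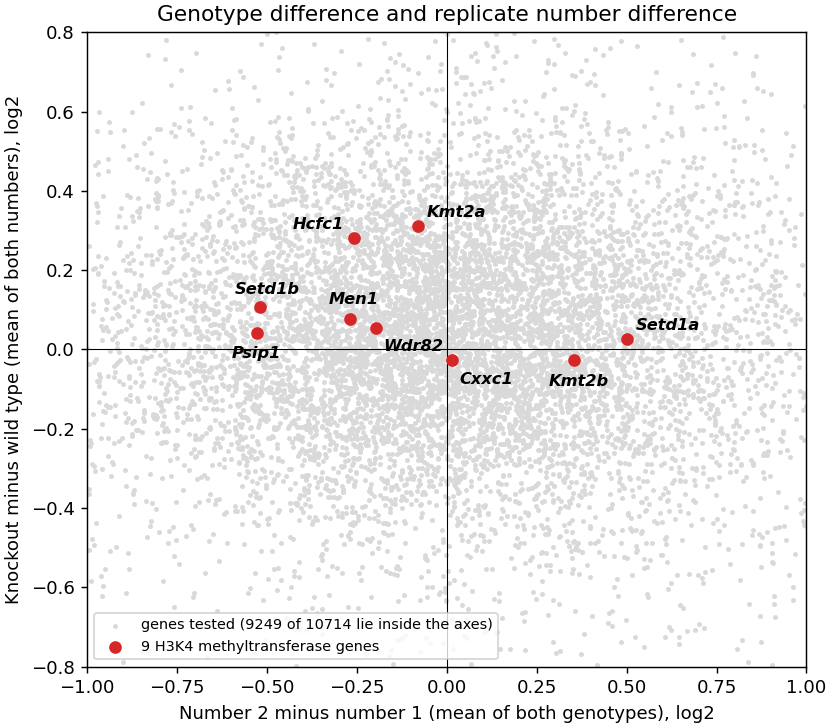
Genotype difference (vertical, PA1 -/- minus PA1 +/+) against replicate number difference (horizontal, number 2 minus number 1), both on the log2(signal + 9.96) scale, for the 9 genes in red and the genes tested in grey, of which 9249 of 10714 lie inside the axes. By their brightest probe sets, the 9 genes spread from -0.53 to 0.50 along the number axis and from -0.03 to 0.31 along the genotype axis.

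The pattern over the 4 arrays was widest for Setd1b (SD of log2 values 0.341). The 5 genes nearest to it, by Euclidean distance of centred log2 values over the 4 arrays, were Cnpy4, Stard3, Peli1, Psip1 and Lgals3, at distances of 0.0525 to 0.0697. They share its order of arrays, highest on PA1 +/+ number 1 and lowest on PA1 +/+ number 2, and 4 arrays give few patterns to tell genes apart. The other probe set of Setd1b had another order, highest on PA1 -/- number 1 and lowest on PA1 -/- number 2. These neighbours are thus those of the brightest probe set, not of the gene.

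The shared core subunits, which these complexes have in common with those of PA1, had a median of 0.12 over 4 genes, with none called, which rests on single arrays: it was -0.034 without the PA1 -/- array numbered 1 and 0.039 without the PA1 +/+ array numbered 1. Wdr5, the subunit that docks on the enzymes, read 1395 and 1504 in PA1 +/+ and 2016 and 1578 in PA1 -/- cells (difference 0.30), and Rbbp5 differed by 0.28. By their brightest probe sets both were higher within both numbers, as were Kmt2a and Hcfc1 and 33.9% of all genes. A second probe set of Wdr5 gave 0.54 within number 1 and -0.29 within number 2, and there the genotypes overlapped. Ash2l differed by -0.05, and Dpy30, at 4249 and 4969.9 against 3903 and 3982, by -0.22. A dimmer probe set of Ash2l gave 0.88.

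In the KMT2C and KMT2D complexes, 4 of 5 genes were higher in PA1 -/- cells within both numbers, as were 33.9% of all genes tested. None of the 5 was called, and their median was 0.36, beside 0.02 over all genes. The same 4 genes were higher within both numbers under each of the 3 other scalings. Paxip1, the PTIP gene, differed by 0.56 and 0.32 within numbers 1 and 2, Ncoa6 by 0.36 and 0.35, Kdm6a by 0.18 and 0.65, and Kmt2d by 0.29 and 0.16. The enzyme gene Kmt2c differed by -0.13 and 0.02. Whether these genes differ from the 9 was not tested. Over all 12 tested probe sets of these 5 genes the median was 0.18, beside 0.05 over the 18 tested probe sets of the 9 genes. A second tested probe set of Kdm6a gave -0.12 and 0.01 within numbers 1 and 2 (mean -0.06). The place of Kdm6a among the 4 higher genes thus rests on its brightest probe set. All 4 tested probe sets of Paxip1 had means above 0, and 1 of the 4 of Kmt2c did.

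Genes that act on H3K4 methylation from outside the complexes were read the same way. Of the demethylase genes, 4 of 5 were higher within both numbers (33.9% of all genes) and 1 was lower within both (29.3% of all genes). None was called, and the median was 0.35, beside 0.02 over all genes. After quantile or cyclic loess scaling 3 of 5 were higher, as Kdm5a dropped out, and after median scaling 0 were lower. Kdm1a (LSD1) differed by 0.38, Kdm5b by 0.36, Kdm5a by 0.35 and Kdm5c by 0.16, while Kdm1b differed by -0.13. The brightest probe sets do not stand for the rest here, as the 17 tested probe sets had a median of 0.12 and ran from -0.72 to 0.40. Ubiquitination of histone H2B, set by RNF20 and RNF40 with the PAF1 complex, promotes H3K4 methylation by SETD1 enzymes. Its 10 genes had a median of 0.08, with 8 above 0 (5710 of 10714 over all genes) and none called. The largest differences were those of Rnf20 (0.37), Cdc73 (0.35) and Rnf40 (0.32). Of these 10 genes, 5 were higher and 1 was lower within both numbers, where 33.9% and 29.3% of all genes were. After quantile or cyclic loess scaling 4 were higher, and after median scaling 0 were lower.

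**Figure D4:**
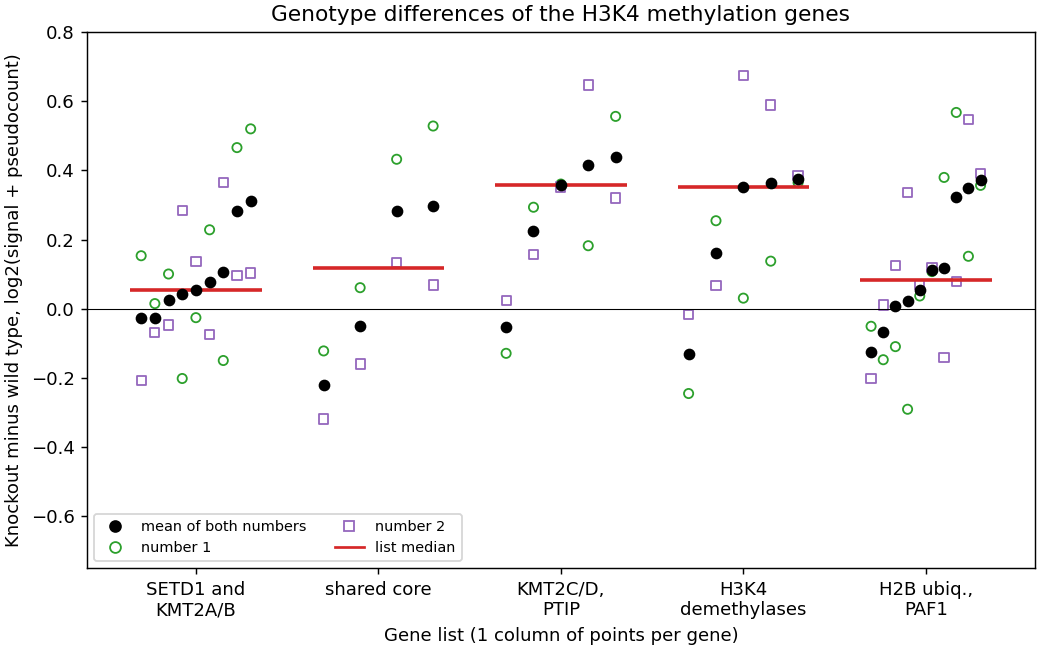
Knockout minus wild type on the log2(signal + 9.96) scale for each gene of 5 lists (brightest probe set), with filled points for the mean of both numbers, open green circles for number 1, open purple squares for number 2, and a red line at the list median. The medians were 0.05 for the SETD1 and KMT2A/B genes, 0.12 for the shared core, 0.36 for the KMT2C/D genes with PTIP, 0.35 for the demethylases and 0.08 for H2B ubiquitination and PAF1.

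Of 8 known target genes of KMT2A with menin, 7 could be tested and none was called. Of the 7, 6 had lower values in PA1 -/- cells within both numbers, where 29.3% of all genes did (5 after median scaling, without Cdkn1b), and the median was -0.32. The 9 tested fibroblast markers above were below 0 too, and their part here was not tested. The largest differences were those of Hoxc8 (-1.01, SE 2.82) and Hoxa7 (-0.45, SE 0.458). Hoxa7 read 561 and 1064 against 424 and 742, with the arrays numbered 2 the higher ones in each genotype. Hoxc8 was bright only on the arrays numbered 1, at 1580.3 and 507, against 5.31 and 1.56 on those numbered 2, so its difference rests on number 1. Hoxc6, the 1 gene above 0 (0.06), was split the same way, at 570.03 and 299 on the arrays numbered 1 and 16.2 and 43.1 on those numbered 2, and a second probe set of it gave -1.10. The cell-cycle inhibitor genes Cdkn1b and Cdkn2c, which menin is known to maintain, differed by -0.10 and -0.17.

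Promoter sequence of these genes is shown because CXXC1 and the CXXC domains of KMT2A and KMT2B bind unmethylated CG dinucleotides. The CG content of the promoters of these genes is a feature that the choice of the genes did not use. RefSeq windows of 250 bases before the start (GRCm38.p6) were found for 5 of the 9 genes. The sequences below are those of the enzyme genes among them, 5′ to 3′ on the strand of the gene, with every CG in capitals.
Kmt2a, chr9:44881290-44881539, minus strand: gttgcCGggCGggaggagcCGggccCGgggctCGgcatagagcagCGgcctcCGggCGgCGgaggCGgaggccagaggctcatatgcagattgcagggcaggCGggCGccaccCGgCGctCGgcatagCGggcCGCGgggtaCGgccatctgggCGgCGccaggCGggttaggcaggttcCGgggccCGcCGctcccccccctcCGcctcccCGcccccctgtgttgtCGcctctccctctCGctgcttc
Setd1a, chr7:127777139-127777388, plus strand: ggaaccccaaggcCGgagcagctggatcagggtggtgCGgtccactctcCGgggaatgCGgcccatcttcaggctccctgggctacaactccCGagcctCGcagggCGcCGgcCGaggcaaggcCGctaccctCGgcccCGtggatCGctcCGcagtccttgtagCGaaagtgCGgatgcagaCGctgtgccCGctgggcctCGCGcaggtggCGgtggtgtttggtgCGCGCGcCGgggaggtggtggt
The motif searched was CG, which reads the same on both strands. Kmt2a held 29, a count reached by 6.78% of the 32851 windows of that length, and Setd1a held 25 (10.7% of windows). Wdr82 held 24 (12% of windows), Hcfc1 19 (19.7%), and the 3 windows of Men1 8 to 10 (37.8% to 43%), beside a median of 6 over all windows. Of the 5 genes, Kmt2a, Setd1a, Wdr82 and Hcfc1 thus lay above the upper quartile of 16, and Men1 did not. The count describes these letters only, and no relation with expression was computed.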

How the data were processed

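Total RNA was hybridised to 4 arrays (2 PA1 +/+, 2 PA1 -/-), per the labels. As intensity values the authors deposited linear MAS5 signals, per the submitters' processing notes; its version and scaling target were not given in the sources used here. Their means after trimming the lowest and highest 2% were 498 on every array, so differences are relative to each array's average. No value column went unmapped.

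After 64 controls were left out, 34945 of 45037 probe sets had 1 symbol in the platform annotation, 932 several and 9160 none, and no gene was named from several. Signals were analysed as log2(signal + 9.96), the 20th percentile of all values, which understates changes of dim genes. Tested were the 50% of probe sets with the highest mean log2 signal (22519, signal near 62.8 or more; 18 of the members' 19) with limma 3.58.1 in R 4.3.3 (lmFit, eBayes with trend; group only), 2-sided, with Benjamini-Hochberg adjustment over all of them and a threshold of 0.05. The test was checked on simulated data. A gene was read through its brightest probe set.

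The members, lists and tests were chosen with earlier results of these data known. Named were the 9 members with all probe sets, Pagr1a, the pathway lists, the 2 menin targets with the largest differences each way, and the 5 genes nearest to the member with the largest SD. Cdkn1b, Cdkn2c and the cell type markers given singly were named after their values were seen. Alternatives were other scalings, pseudocounts (1, and the median, 64.9), filters and variance models, averaging the probe sets of a gene, a threshold of 0.01, a block for the replicate number, and omitting each array in turn. Figures used matplotlib 3.10.9 in Python 3.11.15.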

Additional observations from a re-analysis of the deposited data

How the results depend on the processing

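With 2 arrays a group and no block, even Pagr1a did not pass (limma adjusted p = 0.876), so the absence of calls alone sets no limit on the size of a change. Limits come from the 95% intervals, whose lowest and highest bounds over the 9 genes were 0.553-fold and 2.05-fold by their brightest probe sets. Probe set signals carry no counts from which a depth could be read. None of the 9 genes was called under any of the 16 alternatives. With the replicate number as a block, 447 of 22519 probe sets passed (1.98%), against 0 without it. The brightest probe set of Pagr1a was among them (limma adjusted p = 1.9e-05). Of the members 0 passed, and their smallest limma adjusted p was then 0.442 (Hcfc1). Under the other 14 alternatives in which probe sets were counted, limma called 0 of them. The labels do not say that a number pairs the arrays, but over tested probe sets the number difference in PA1 +/+ cells correlated at 0.805 with that in PA1 -/- cells, as a hint from the data. The median of the 9 genes was 0.024 after quantile normalization, 0.10 after median scaling, 0.026 after cyclic loess and 0.030 when the probe sets of a gene were averaged, and it lay between -0.0034 and 0.19 without 1 array. The number of members lower at both numbers was 1, not 0, after quantile and cyclic loess normalization and with the mean of probe sets. In the same order the median of the PA1-containing complexes was 0.30, 0.41, 0.30 and 0.23, with 0.33 for a pseudocount at the median, 0.29 for the upper 30% of probe sets, and 0.25 to 0.46 without 1 array. That of H2B ubiquitination and PAF1 genes was 0.026, 0.13, 0.035 and 0.038, and 0.0031 to 0.19 without 1 array, and that of the demethylases was 0.041 with the mean of probe sets and 0.18 to 0.48 without 1 array, the lowest without the PA1 +/+ array numbered 2. That of the shared core was 0.25 with the mean of probe sets and -0.034 to 0.21 without 1 array. The sign turned for Setd1a after quantile (-0.032) and cyclic loess (-0.034) normalization, for Psip1 after cyclic loess (-0.0028), for Kmt2b and Cxxc1 after median scaling (0.022 and 0.023), and for Men1 with the mean of its probe sets (-0.045). Leaving out 1 array, which leaves unequal numbers in the genotypes and a lone array assumed to vary like the others, gave -0.26 to 0.31 for Setd1a, -0.29 to 0.24 for Kmt2b, -0.28 to 0.50 for Setd1b, -0.13 to 0.29 for Men1, -0.34 to 0.43 for Psip1, -0.055 to 0.0013 for Cxxc1, -0.084 to 0.19 for Wdr82, 0.17 to 0.46 for Kmt2a and 0.06 to 0.50 for Hcfc1. The cause of these shifts was not tested.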
